A study of Mus musculus with 20 samples.

Results

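The adipokine genes described here are 8 mouse genes that encode signals made by fat cells or, for 1 of them, a receptor of such signals. They are Adipoq, Lep, Retn, Cfd, Rarres2, Rbp4, Nampt and Acvr1c. They were found by their gene symbol in the deposited count tables of 2 tissues, and they are 8 of the 20996 genes listed in either table. The eWAT table lists 8 of them among 20738 genes, and the liver table lists 5 among 15608 genes. Adipoq, Lep and Retn are not listed in the liver table.

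The study sequenced poly-A RNA of epididymal white adipose tissue (eWAT, the fat pad beside the testis and epididymis) and of liver from male mice aged 2 months. There were 5 libraries of each of 4 groups: IR 4A eWAT, WT eWAT, IR 4A liver and WT liver. The labels name the mutant only as IR 4A; as background, it is a whole-body change of the insulin receptor in the motif by which the receptor binds MAD2, and the study asks how MAD2-dependent uptake of the receptor bears on metabolism. A change of single codons leaves no trace in gene counts, so the labels were not checked against Insr. The labels give no animal numbers that tie an eWAT library to a liver library, and they do not say whether each library is from a separate animal, so p-values measure only the spread between these libraries. eWAT libraries held 13651874 to 15530589 counts in IR 4A mice and 15702786 to 21615358 in WT mice, and liver libraries held 18209000 to 24238359 in IR 4A mice and 17989420 to 21067651 in WT mice.

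Adipose tissue stores triglyceride in mature adipocytes and also works as an endocrine gland. Adipocytes release adiponectin and leptin in amounts that follow fat mass in opposite directions, and insulin is among the signals that regulate several adipokine genes in cultured adipocytes. Adiponectin raises insulin sensitivity in liver and muscle, leptin acts on the hypothalamus to restrain feeding, and resistin, which in mice is made mainly by adipocytes, opposes insulin action in liver. Adipsin, chemerin, retinol-binding protein and NAMPT add links to complement, to immune cell movement, to vitamin A transport and to NAD synthesis.

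The promoter letters of the 4 genes with the highest level per length or the widest spread are shown as a description. No link between these letters and the levels was tested. Each is the 300-base window from RefSeq, build GRCm38.p6, that spans the annotated start of the gene, most of it upstream, on the strand of the gene. Capitals mark matches to CCAAT (the CCAAT box) or TTNNGNAA (a core shared by many binding sites of the adipocyte factors of the C/EBP family), searched on both strands; TATAAA (the TATA box) was searched too. The Adipoq window is chr16:23146286-23146585, plus strand, the Lep window chr6:29059971-29060270, plus strand, the Retn window chr8:3655520-3655819, plus strand, and the Cfd window chr10:79890603-79890902, plus strand.
Adipoq: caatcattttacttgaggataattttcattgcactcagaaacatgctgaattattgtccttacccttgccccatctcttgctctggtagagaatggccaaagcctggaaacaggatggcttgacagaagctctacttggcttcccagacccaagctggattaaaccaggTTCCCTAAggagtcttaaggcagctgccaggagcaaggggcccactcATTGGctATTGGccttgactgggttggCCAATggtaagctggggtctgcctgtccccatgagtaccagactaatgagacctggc
Lep: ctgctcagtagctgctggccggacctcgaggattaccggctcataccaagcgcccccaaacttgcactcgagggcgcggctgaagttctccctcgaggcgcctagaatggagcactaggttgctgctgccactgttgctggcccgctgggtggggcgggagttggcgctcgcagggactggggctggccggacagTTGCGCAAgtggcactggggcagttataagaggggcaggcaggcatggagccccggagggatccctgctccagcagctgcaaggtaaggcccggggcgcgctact
Retn: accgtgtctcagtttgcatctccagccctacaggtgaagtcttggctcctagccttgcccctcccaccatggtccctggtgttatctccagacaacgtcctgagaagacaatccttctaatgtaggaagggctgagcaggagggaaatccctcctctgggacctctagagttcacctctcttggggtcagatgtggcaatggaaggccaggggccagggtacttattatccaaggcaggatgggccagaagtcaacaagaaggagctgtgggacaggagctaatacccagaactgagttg
Cfd: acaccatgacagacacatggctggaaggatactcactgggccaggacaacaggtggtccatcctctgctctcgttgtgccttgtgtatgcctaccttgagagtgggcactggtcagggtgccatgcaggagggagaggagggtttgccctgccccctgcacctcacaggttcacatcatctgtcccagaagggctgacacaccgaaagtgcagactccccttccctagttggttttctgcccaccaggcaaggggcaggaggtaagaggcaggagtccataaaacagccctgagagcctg

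The Adipoq window held 3 matches to CCAAT, 2 of them within a few bases of each other on the minus strand, and 1 to TTNNGNAA. The Lep window held 1 palindromic stretch, TTGCGCAA, that matches TTNNGNAA on both strands and starts 55 bases before the gene. The Retn and Cfd windows held none of the 3 motifs. Of all 32851 windows, 37.4% hold CCAAT, 40.7% hold TTNNGNAA and 13.6% hold TATAAA, so each match is a description of letters that many promoters share. A window was at hand for 7 of the 8 genes. Among the windows not shown, those of Rbp4 held matches to each of the 3 motifs, and those of Nampt and Acvr1c held none. Retn lies on chromosome 8, as does Insr, the insulin receptor gene changed in these mice, with 12 protein-coding genes between them in the RefSeq annotation; the other members lie on chromosomes 2 (Acvr1c), 6 (Lep and Rarres2), 10 (Cfd), 12 (Nampt), 16 (Adipoq) and 19 (Rbp4).

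One eWAT library stood apart from the others and bears on every eWAT value below. WT replicate 4 had the lowest level of 18 of 19 epididymis markers. Their summed level was 37160 to 51360 CPM (counts scaled to a fixed library total) in the IR 4A libraries, against 4943 CPM in WT replicate 4 and 27300 to 42970 CPM in the other WT libraries. The epididymal glutathione peroxidase Gpx5 was at 10.2 CPM in WT replicate 4. The same library had the highest level of 17 of 18 mature adipocyte markers, a list that leaves out the 8 adipokine genes. The summed adipocyte markers were 3869 to 22760 CPM in the IR 4A libraries, against 42050 CPM in WT replicate 4 and 12160 to 20220 CPM in the other WT libraries. At the low end, IR 4A replicate 3 summed to 3869 CPM and IR 4A replicate 4 to 5424 CPM, and 15 of the 18 markers were lowest in IR 4A replicate 3. Sperm and spermatid markers summed to 231 to 3883 CPM in IR 4A eWAT and 262 to 8377 CPM in WT eWAT. Hepatocyte markers summed to 20.9 to 351 CPM in IR 4A eWAT and 14.5 to 540 CPM in WT eWAT. In bulk tissue, fewer adipocytes and less RNA of a gene per adipocyte cannot be told apart. The genotype tests of the 8 genes in eWAT are therefore given with and without WT replicate 4.

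In eWAT, the 8 adipokine genes took the same order of libraries at both ends: each was highest in WT replicate 4, lowest in IR 4A replicate 3 and second lowest in IR 4A replicate 4. None of the 8 passed the test between genotypes, the quasi-likelihood F test of edgeR at an adjusted p of 0.05 (Benjamini-Hochberg) over 16476 genes; over all genes 0.0121% were called. All 8 fitted log2 fold changes (IR 4A over WT) were negative, with a median of -0.85, beside -0.08 for all genes tested, of which 59.9% were negative. The mature adipocyte markers did the same, with 18 of 18 negative and a median of -0.73. Without WT replicate 4 the median over the 8 was -0.47, beside a median of -0.31 for the adipocyte markers. None of the 8 passed in that fit, which called 0 of all 17091 genes tested. At an unadjusted p under 0.05 there were 2 of the 8 genes, Rarres2 and Acvr1c, against a background of 15.9% of all genes. With limma voom 0 of the 8 were called and with DESeq2 1, where 0.473% and 7.31% of all genes were called. The levels below are CPM scaled with edgeR's TMM factors within eWAT.

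**Figure D1:**
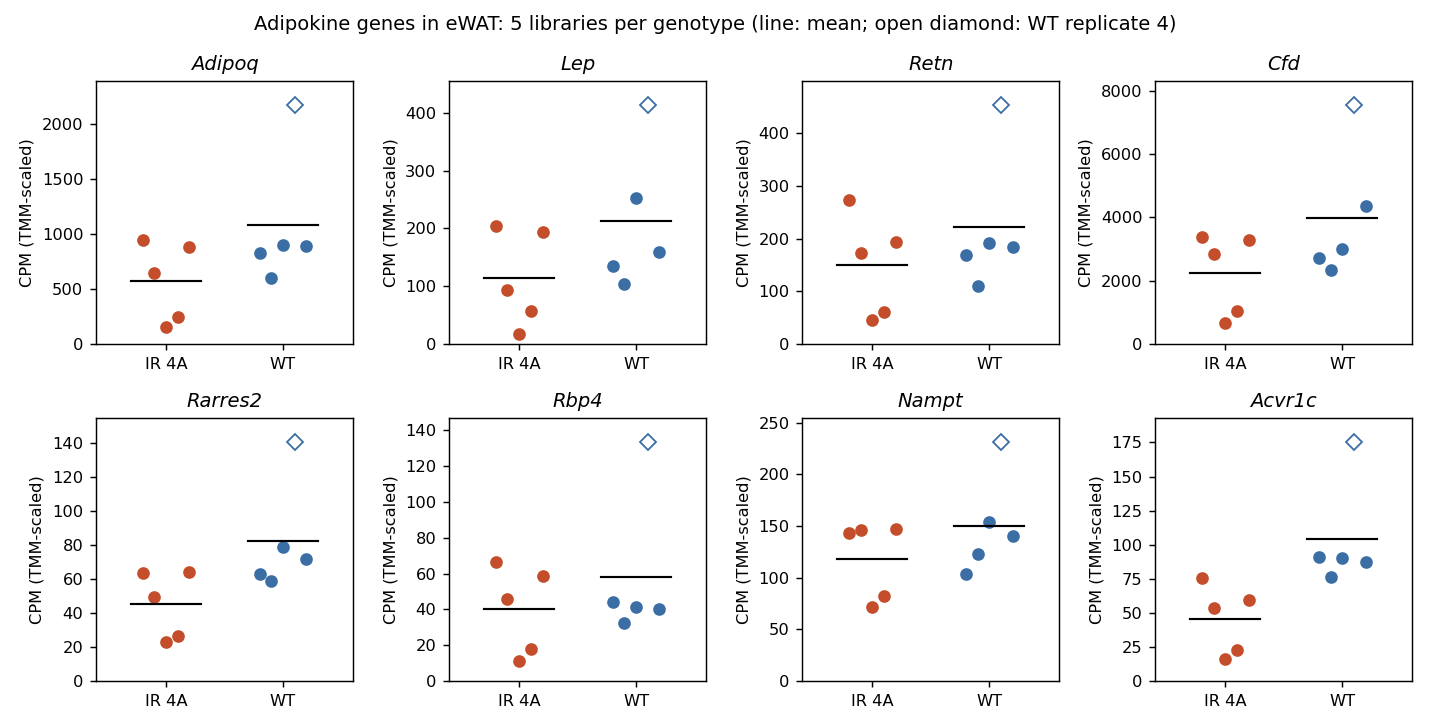
Level of each adipokine gene in every eWAT library, in TMM-scaled CPM on linear axes that start at 0; points are the 5 IR 4A and 5 WT libraries, lines are group means, and the open diamond is WT replicate 4. The diamond is the highest point in each panel, at 2173 CPM for Adipoq, and only the Acvr1c groups are apart, with 75.8 CPM as the highest IR 4A value and 76.2 CPM as the lowest WT value.

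Among the classical hormones, Adipoq, which encodes adiponectin, had 945, 648, 154, 244 and 883 CPM in IR 4A replicates 1 to 5, against 832, 597, 899, 2173 and 892 CPM in WT replicates 1 to 5. The groups overlapped: IR 4A replicates 1, 2 and 5 lay inside the WT range, and IR 4A replicates 3 and 4 lay below every WT library. Its means were 575 ± 362 CPM in IR 4A eWAT and 1078 ± 624 CPM in WT eWAT (SD, n = 5 each). The fitted log2 fold change was -0.91 (SE 0.54, edgeR adjusted p = 0.435). Without WT replicate 4 it was -0.48 (SE 0.51, edgeR adjusted p = 0.693), and the WT mean was 805 ± 142 CPM (SD, n = 4).

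Lep encodes leptin, the hormone that reports fat stores to the brain. It had 205, 94.1, 18.3, 57.1 and 194 CPM in IR 4A replicates 1 to 5, against 136, 105, 253, 413 and 159 CPM in WT replicates 1 to 5. Lep had the widest range of the 8 genes, with the highest library 22.5 times the lowest, and 3 of 5 IR 4A libraries lay below every WT library while the other 2 lay inside the WT range. The log2 fold change was -0.91 (SE 0.62, edgeR adjusted p = 0.493), and -0.52 without WT replicate 4 (edgeR adjusted p = 0.711).

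Retn encodes resistin. It had 274, 172, 45.8, 60.9 and 194 CPM in IR 4A replicates 1 to 5, against 169, 111, 191, 453 and 183 CPM in WT replicates 1 to 5. Apart from WT replicate 4, the highest Retn library was an IR 4A one, replicate 1. Its log2 fold change was -0.57 (SE 0.53, edgeR adjusted p = 0.631) and came close to 0 without WT replicate 4, at -0.13 (SE 0.50, edgeR adjusted p = 0.908).

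Cfd encodes adipsin, the serine protease also called complement factor D that starts the alternative complement pathway, and it was the most abundant of the 8. It had 3367, 2830, 673, 1049 and 3289 CPM in IR 4A replicates 1 to 5, against 2716, 2339, 2989, 7547 and 4364 CPM in WT replicates 1 to 5. IR 4A replicates 1, 2 and 5 lay within the WT range. For Cfd the log2 fold change was -0.83 (SE 0.51, edgeR adjusted p = 0.444), and -0.46 without WT replicate 4 (edgeR adjusted p = 0.691).

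Rarres2 encodes chemerin, a protein that attracts macrophages and dendritic cells and acts on adipocytes. It had 63.5, 49.5, 22.6, 26.6 and 63.8 CPM in IR 4A replicates 1 to 5, against 62.9, 58.5, 78.5, 141 and 71.5 CPM in WT replicates 1 to 5. The groups overlapped only where IR 4A replicates 1 and 5 passed the 2 lowest WT libraries. The fit gave a log2 fold change of -0.87 (SE 0.36, edgeR unadjusted p = 0.0355, adjusted p = 0.287), and -0.58 without WT replicate 4 (edgeR adjusted p = 0.518).

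Rbp4 encodes retinol-binding protein, which carries vitamin A in blood. It had 66.7, 45.7, 10.9, 18.0 and 58.4 CPM in IR 4A replicates 1 to 5, against 43.9, 32.3, 41.4, 134 and 40.2 CPM in WT replicates 1 to 5. Here 3 IR 4A libraries were above 4 of the 5 WT libraries. The sign of the change rested on WT replicate 4: the log2 fold change was -0.55 with it (SE 0.56, edgeR adjusted p = 0.665) and 0.02 without it (SE 0.49, edgeR adjusted p = 0.985).

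Nampt encodes the enzyme of NAD salvage from nicotinamide, which is also released by adipocytes as visfatin. It had 143, 146, 71.4, 82.2 and 147 CPM in IR 4A replicates 1 to 5, against 104, 123, 153, 232 and 140 CPM in WT replicates 1 to 5. Nampt had the narrowest range of the 8, with the highest library 3.24 times the lowest. Its log2 fold change was -0.35 (SE 0.27, edgeR adjusted p = 0.556), and -0.14 without WT replicate 4 (edgeR adjusted p = 0.794).

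Acvr1c encodes ALK7, a type I receptor for activins and GDF3 that restrains lipolysis in mouse adipocytes, and it is the 1 receptor among the 8. It had 75.8, 53.6, 16.3, 22.9 and 59.7 CPM in IR 4A replicates 1 to 5, against 91.1, 76.2, 90.0, 176 and 87.1 CPM in WT replicates 1 to 5. It was the 1 gene of the 8 whose groups did not overlap, as did 3.22% of all genes with IR 4A lower, and the gap between IR 4A replicate 1 and WT replicate 2 was narrow. Its log2 fold change was -1.19 (SE 0.43, edgeR unadjusted p = 0.0197, adjusted p = 0.249), the largest in size of the 8. Without WT replicate 4 the log2 fold change was -0.91 (SE 0.42, edgeR adjusted p = 0.445). Leaving out a library cannot make separate groups overlap, so that setting is no check of the separation. DESeq2 gave -1.20 for Acvr1c and called it (adjusted p = 0.0454), 1 of 8 genes, in a fit that called 7.31% of all genes, 4.13% as lower. In the authors' deposited table, Acvr1c stood at a log2 fold change of -1.19 (adjusted p = 0.122) and Rarres2 at -0.92 (adjusted p = 0.198), and the other 6 genes had adjusted p-values of 0.404 to 0.693.

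The 8 genes were also fitted with the mean log2 level of the 18 mature adipocyte markers of each library as a covariate. In that fit 2 of the 8 passed, Acvr1c with -0.65 (SE 0.13, edgeR adjusted p = 0.0434) and Rarres2 with -0.35 (edgeR adjusted p = 0.0440), where 4.87% of all genes passed, 4.62% as lower. The other estimates lay nearer 0, at -0.18 for Adipoq and -0.16 for both Lep and Cfd. Those of Retn, Rbp4 and Nampt turned positive, to 0.19, 0.28 and 0.05, with none past the threshold. Leaving out WT replicate 4 as well, a setting added after seeing the data, gave -0.67 for Acvr1c (edgeR adjusted p = 0.0532) and -0.34 for Rarres2 (edgeR adjusted p = 0.0558), where 0.205% of all genes passed, so both calls were lost while the estimates hardly moved. With the epididymis marker level as the covariate none of the 8 passed, in a fit that called 0 of all 16476 genes. Acvr1c stood at -0.84 in that fit (edgeR adjusted p = 0.532).

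**Figure D2:**
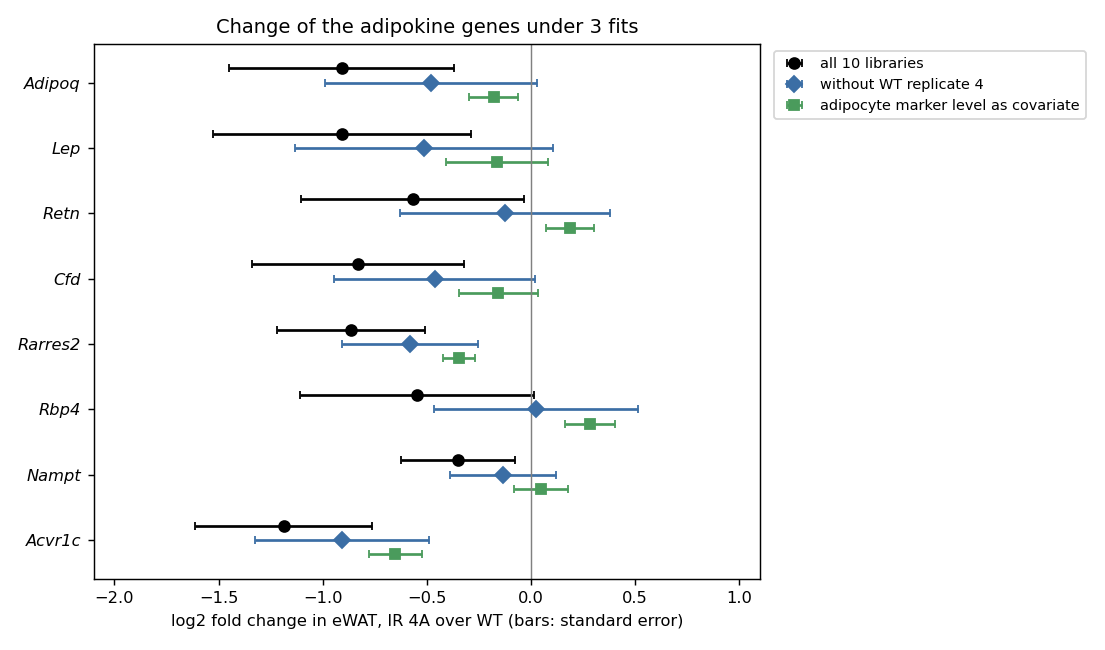
Log2 fold change of each adipokine gene in eWAT, IR 4A over WT, from the fit of all 10 libraries (black), the fit without WT replicate 4 (blue) and the fit with the mature adipocyte marker level as a covariate (green); bars are standard errors. The estimates lie nearer 0 from black to green for Adipoq, Lep and Cfd, those of Retn, Rbp4 and Nampt cross 0 in the green fit, and Acvr1c is the farthest below 0 in each of the 3 fits, at -1.19, -0.91 and -0.65.

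The genes were also set against the adipocyte markers within each library, without a model. The level of each gene was divided by the summed level of the 18 adipocyte markers, of which Car3 made up 39.4% and Fabp4 26.3%. The mean log2 ratio for Adipoq was -4.52 ± 0.10 in IR 4A eWAT and -4.36 ± 0.09 in WT eWAT (SD, n = 5 each). WT replicate 4, at -4.27, was the highest of the 10, and the 10 values spanned -4.66 to -4.27, a narrow band beside the 14.2-fold span of the Adipoq level itself. For Cfd the mean log2 ratio was -2.50 ± 0.18 in IR 4A eWAT and -2.47 ± 0.23 in WT eWAT (SD, n = 5 each). For Lep it was -6.99 ± 0.48 in IR 4A eWAT and -6.73 ± 0.25 in WT eWAT (SD, n = 5 each), with IR 4A replicate 3 lowest at -7.72.

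The ratio of Acvr1c was -8.23, -8.03, -7.89, -7.89 and -8.34 in IR 4A replicates 1 to 5, against -7.48, -7.32, -7.81, -7.90 and -7.77 in WT replicates 1 to 5. The groups met only at WT replicate 4, and without it they did not overlap, with IR 4A lower. The ratio of Rbp4 was -8.42, -8.26, -8.47, -8.24 and -8.38 in IR 4A replicates 1 to 5, against -8.53, -8.56, -8.93, -8.30 and -8.89 in WT replicates 1 to 5. Here too WT replicate 4 alone reached into the other group, and without it the IR 4A ratios were all higher. The share of all genes whose ratios separate in this way was not computed. For levels not divided by the markers, 6.51% of all genes did not overlap without WT replicate 4, in either direction. Retn had a mean log2 ratio of -6.45 ± 0.12 in IR 4A eWAT and -6.67 ± 0.10 in WT eWAT (SD, n = 5 each), and its groups overlapped with and without WT replicate 4. Nampt had -6.55 ± 0.65 in IR 4A eWAT and -7.11 ± 0.33 in WT eWAT (SD, n = 5 each), and Rarres2 had -7.99 ± 0.44 in IR 4A eWAT and -8.00 ± 0.19 in WT eWAT (SD, n = 5 each). These differences moved with the denominator: with the median of the 18 markers in place of their sum, the difference of IR 4A minus WT was -0.81 in place of -0.42 for Acvr1c, -0.55 in place of -0.16 for Adipoq, -0.10 in place of 0.29 for Rbp4 and -0.17 in place of 0.22 for Retn.

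**Figure D3:**
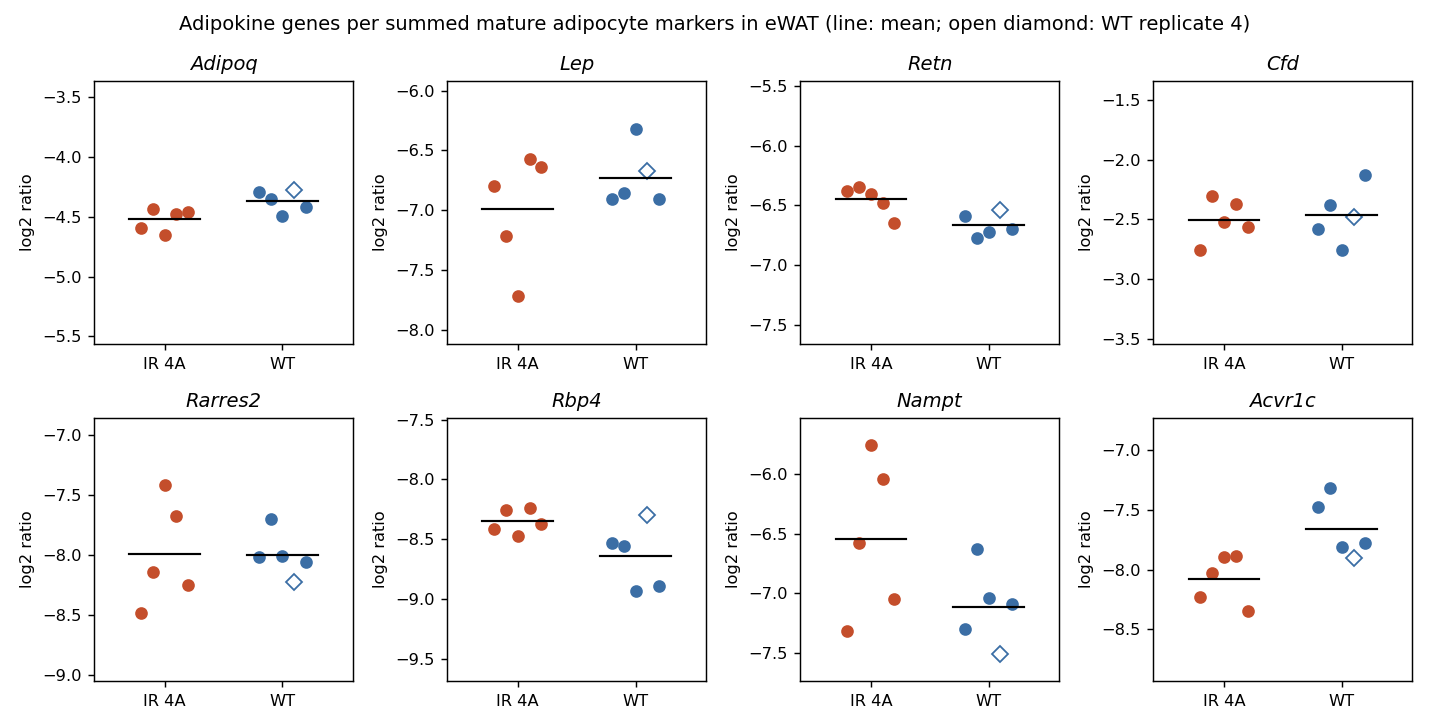
Log2 ratio of each adipokine gene to the summed mature adipocyte markers in every eWAT library; all panels span the same number of log2 units, points are libraries, lines are group means and the open diamond is WT replicate 4. The groups overlap in all 8 panels; for Acvr1c and Rbp4 the diamond alone makes them meet, at -7.90 and -8.30.

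The profiles over the 10 eWAT libraries were compared by the root mean square (RMS) difference of log2 CPM after each gene was centred on its own mean. These points share library and depth, so the values are a description. The closest pair was Rbp4 and Retn, with an RMS difference of 0.172, followed by Adipoq and Cfd with 0.187. The farthest pair was Lep and Nampt with 0.799, the members with the widest and the narrowest range. Among 14842 other genes, the 3 nearest to Adipoq were Prkar2b (a regulatory subunit of protein kinase A, RMS difference 0.0746), Plin4 (a lipid droplet coat protein, 0.0965) and Cav1 (the main caveolar protein, 0.111). Cfd had Fitm2, which helps lipid droplets form, nearest (0.157), then Gsn and again Plin4. Lep had no neighbour as close, with Slc22a4 at 0.262 and the lipid droplet gene Cidec also at 0.262. Retn was nearest to Plaat3, an adipocyte phospholipase (0.123), and Rbp4 to Ppp1r1a (0.152). Acvr1c was nearest to the endothelial receptor gene Adgrl4 (0.0939), the growth factor gene Igf1 (0.114) and the matrix gene Sparc (0.130). Their log2 fold changes were -1.09, -1.16 and -1.23, near that of Acvr1c because they were chosen by profile over the same libraries. Rarres2 was nearest to Kctd12 (0.0801), and Nampt to Peg13 (0.0918) and Lnpep (0.105).

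**Figure D4:**
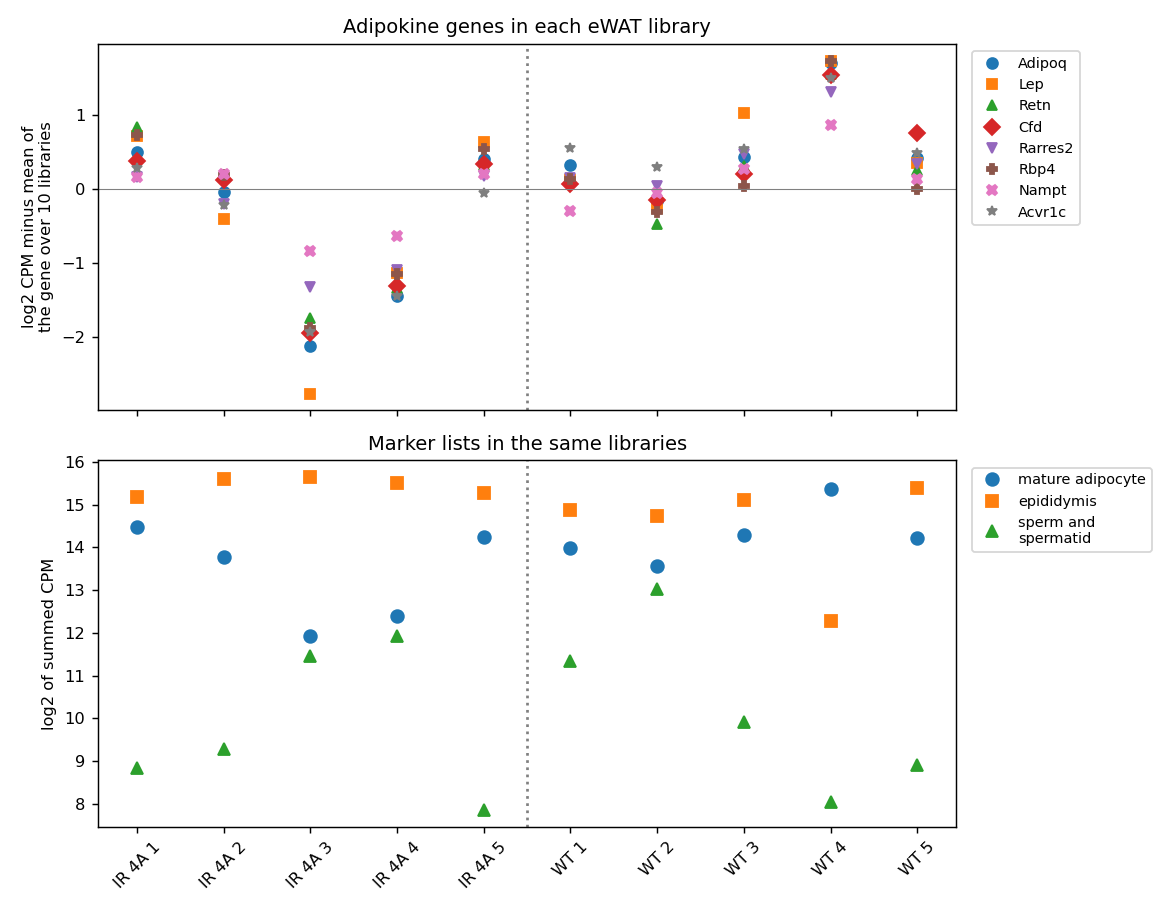
Upper panel, log2 CPM of each adipokine gene minus its own mean over the 10 eWAT libraries; lower panel, log2 of the summed CPM of the mature adipocyte, epididymis and sperm marker lists in the same libraries, with IR 4A left of the dotted line and WT right of it. All 8 genes are lowest in IR 4A replicate 3 and highest in WT replicate 4, as is the adipocyte sum (3869 and 42050 CPM), while the epididymis sum is lowest in WT replicate 4 (4943 CPM).

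Per kilobase of the longest coding transcript, which allows levels to be set between genes, the order of the 8 group means was the same in both genotypes. Cfd had 2431 ± 1393 CPM per kb in IR 4A eWAT and 4329 ± 2310 in WT eWAT (SD, n = 5 each), and Adipoq had 445 ± 280 and 834 ± 483 CPM per kb in the same 2 groups (SD, n = 5 each). Retn followed with 131 CPM per kb in IR 4A eWAT and 194 in WT eWAT, then Rarres2 with 56.9 and 104, Lep with 34.9 and 65.5, Rbp4 with 34.4 and 50.2 and Nampt with 26.0 and 33.2 in those groups. Acvr1c, the receptor, was the lowest with 4.98 CPM per kb in IR 4A eWAT and 11.4 in WT eWAT. In WT eWAT, the mean ± SD intervals of Cfd, Adipoq and Retn did not meet, nor did those of Nampt and Acvr1c, while each neighbouring pair from Retn to Nampt overlapped.

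Receptors, binding partners and other secreted products of these pathways were taken from lists chosen with earlier results of these data known, and none of their genes passed the edgeR test in eWAT. Of all 226 listed genes tested, the 8 and the cell type markers included, 45 passed with DESeq2, where 7.31% of all genes passed, and 3 with limma voom, where 0.473% did. Of 33 other secreted adipokines tested, 26 had a negative and 7 a positive log2 fold change in eWAT, with a median of -0.61 beside -0.08 for all genes; 10 of the 33 had an unadjusted p under 0.05, beside 15.9% of all genes. The groups did not overlap for 3 of the 33, in each case with IR 4A lower, as for 3.22% of all genes. Without WT replicate 4 the median was -0.36, and none of the listed genes passed, in a fit that called 0 of all 17091 genes. The follistatin-like gene Fstl1 had 56.7 ± 25.8 CPM in IR 4A eWAT and 180 ± 105 CPM in WT eWAT (SD, n = 5 each; log2 fold change -1.66, edgeR adjusted p = 0.194; -1.23 without WT replicate 4), and the matricellular gene Ccn5 had 1.25 ± 0.37 CPM in IR 4A eWAT and 3.88 ± 1.51 CPM in WT eWAT (SD, n = 5 each; -1.63, edgeR adjusted p = 0.164; -1.39 without WT replicate 4).

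Among the pathway lists, the partners of Cfd had the largest median log2 fold change in size. Of 10 genes of the alternative complement pathway 9 were negative and 1 positive, with a median of -1.28, and -0.89 without WT replicate 4. The groups of 3 of the 10 did not overlap, with IR 4A lower, beside 3.22% of all genes, and 7 of the 10 had an unadjusted p under 0.05, beside 15.9% of all genes. C3, the substrate that the adipsin pathway cleaves, had 302 ± 171 CPM in IR 4A eWAT and 1239 ± 623 CPM in WT eWAT (SD, n = 5 each; -2.04, edgeR adjusted p = 0.194). Its highest IR 4A library had 514 CPM, below the lowest WT library with 805 CPM. Without WT replicate 4 the WT mean of C3 was 972 ± 206 CPM (SD, n = 4) and its log2 fold change -1.68 (edgeR adjusted p = 0.321). The C5a receptor gene C5ar1 stood at -1.96 (edgeR adjusted p = 0.187; -1.51 without WT replicate 4), with groups that did not overlap, and Cd55, a decay accelerator of the convertase that is also a marker of fat progenitors, at -1.48 (edgeR adjusted p = 0.173; -1.20 without WT replicate 4).

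Of the resistin family and its proposed receptors, all 4 tested genes were negative, with a median of -1.02, and -0.80 without WT replicate 4. Retnla, a resistin-like gene of alternatively activated macrophages and not of adipocytes, had 19.0 ± 10.4 CPM in IR 4A eWAT and 99.4 ± 87.8 CPM in WT eWAT (SD, n = 5 each; -2.39, edgeR adjusted p = 0.203), and Tlr4 stood at -1.31 (edgeR adjusted p = 0.233). WT replicate 4 had 253 CPM of Retnla, and without it the WT mean was 61.1 ± 22.2 CPM (SD, n = 4) and the log2 fold change -1.68 (edgeR adjusted p = 0.339). The chemerin receptor gene Cmklr1 had 40.3 ± 16.4 CPM in IR 4A eWAT and 97.7 ± 79.4 CPM in WT eWAT (SD, n = 5 each; -1.28, edgeR adjusted p = 0.271). WT replicate 4 had 238 CPM of Cmklr1, and without it the WT mean was 62.7 ± 15.1 CPM (SD, n = 4) and the log2 fold change -0.63 (edgeR adjusted p = 0.503). The second of 2 chemerin receptor genes, Ccrl2, stood at -0.20. Most marker lists of other cell types had a negative median, and edgeR called none of their genes. Negative were 11 of 12 macrophage markers (median -1.21), 13 of 14 adipose progenitor markers (-1.20) and 6 of 10 mesothelial markers (-1.12). So were 7 of 7 endothelial (-1.11), 5 of 6 lymphocyte (-1.44) and 12 of 12 sperm and spermatid markers (-0.71). In contrast, 19 of 19 epididymis markers were positive with a median of 0.68. Without WT replicate 4 the medians were -0.82 for macrophage, -0.93 for progenitor, -0.92 for mesothelial, -0.75 for endothelial and 0.46 for epididymis markers. The hepatocyte median turned from -0.82 with that library to 0.87 without it. Macrophage markers summed to 165 to 397 CPM in IR 4A eWAT and 478 to 1421 CPM in WT eWAT, without overlap, and progenitor markers summed to 863 to 2333 CPM in IR 4A eWAT and 2907 to 7269 CPM in WT eWAT, also without overlap. Their part in the values of the complement, resistin and chemerin genes was not tested.

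The other pathways were split between signs, also without WT replicate 4. For adiponectin receptors and secretion 7 of 11 genes were negative; the receptor gene Adipor2 stood at -0.87 (edgeR adjusted p = 0.324; -0.50 without WT replicate 4) and Adipor1 at 0.19 (edgeR adjusted p = 0.354). For leptin receptor signalling it was 5 of 9, with the feedback inhibitor gene Socs3 at -0.68 (edgeR adjusted p = 0.459; -0.44 without WT replicate 4). For retinol transport and handling it was 8 of 15, with the retinaldehyde dehydrogenase gene Aldh1a1 at 0.31 (edgeR adjusted p = 0.298). For NAD synthesis and use it was 10 of 15, with the NAD-consuming ectoenzyme gene Bst1 at -1.53 (edgeR adjusted p = 0.227; -1.33 without WT replicate 4). Bst1 was low, with 0.81 ± 0.46 CPM in IR 4A eWAT and 2.37 ± 0.72 CPM in WT eWAT (SD, n = 5 each). For the activin and ALK7 pathway it was 8 of 12. Inhbb, the activin subunit gene that mouse adipocytes express, had 54.8 ± 2.2 CPM in IR 4A eWAT and 45.4 ± 4.1 CPM in WT eWAT (SD, n = 5 each; log2 fold change 0.27, edgeR adjusted p = 0.214), with IR 4A higher in all 5 libraries and no overlap. Without WT replicate 4 the log2 fold change of Inhbb was 0.25 (edgeR adjusted p = 0.367), and 6.51% of all genes did not overlap in either direction. Groups that are apart stay apart when a library is left out, so that setting is no check of the separation. The share of genes with IR 4A higher over all 10 libraries is not given here.

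In liver, 5 of the 8 adipokine genes were listed and 3 were abundant enough to test, Rarres2, Rbp4 and Nampt. None of the 3 passed the edgeR test over 12421 genes, where 0.00805% of genes were called; 1 had an unadjusted p under 0.05, and DESeq2 and limma voom called 0 of the 3. The adipocyte lipid droplet gene Plin1 was near 0 in liver, at 0 to 0.236 CPM in IR 4A libraries and 0 to 0.112 CPM in WT libraries. The whole adipocyte marker list, of which liver also expresses several genes, such as Dgat2, Gpd1 and Car3, summed to 1574 to 2091 CPM in IR 4A livers and 874 to 2472 CPM in WT livers. Cfd gave 8, 5, 1, 2 and 1 counts in IR 4A liver replicates 1 to 5, against 4, 2, 5, 0 and 3 counts in WT liver replicates 1 to 5. Acvr1c gave 1 count in each of the 5 IR 4A liver libraries, against 2, 3, 0, 0 and 2 counts in WT liver replicates 1 to 5. At this depth no genotype difference of these 2 genes was detectable in liver.

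WT liver replicates 1 and 3 stood apart in the acute-phase gene Saa2, which hepatocytes switch on in inflammation. Saa2 had 10.7 to 194 CPM in the 5 IR 4A livers, against 8493 CPM in WT replicate 1, 4353 CPM in WT replicate 3 and 45.5 to 183 CPM in the other WT livers. Rarres2 had 238, 225, 218, 228 and 228 CPM in IR 4A liver replicates 1 to 5, against 139, 224, 142, 212 and 211 CPM in WT liver replicates 1 to 5. The 2 low values are those of WT replicates 1 and 3, and 4 of 5 IR 4A livers lay above every WT liver. The change was 0.29 on the log2 scale (SE 0.14, edgeR adjusted p = 0.287), and 0.07 (edgeR adjusted p = 0.662) with both libraries left out, a setting added after seeing the data.

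Rbp4, a major secreted product of hepatocytes, had 1346, 1277, 1109, 1306 and 1424 CPM in IR 4A liver replicates 1 to 5, against 998, 1549, 939, 1199 and 1573 CPM in WT liver replicates 1 to 5. The IR 4A values lay inside the WT range, whose 2 lowest were again WT replicates 1 and 3. Its log2 fold change was 0.05 (SE 0.15, edgeR adjusted p = 0.906), and -0.16 (edgeR adjusted p = 0.574) without those 2 libraries. Nampt had 83.4, 95.5, 93.2, 114 and 123 CPM in IR 4A liver replicates 1 to 5, against 37.7, 77.9, 66.2, 73.1 and 84.8 CPM in WT liver replicates 1 to 5. In 4 of 5 IR 4A livers it was above every WT liver, and the exception was IR 4A replicate 1, just under WT replicate 5. Its log2 fold change of 0.58 did not pass (SE 0.19, edgeR unadjusted p = 0.00881, adjusted p = 0.170; 18.1% of all genes had an unadjusted p under 0.05), and without WT replicates 1 and 3 it was 0.37 (edgeR adjusted p = 0.285). In the authors' deposited table, liver Nampt stood at 0.62 (adjusted p = 0.156).

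Among the listed partners in liver, none passed with edgeR; of all 162 listed genes tested, 11 passed with DESeq2, where 3.63% of all genes passed. Acvr2b, a type II activin receptor gene, had 3.81 ± 0.57 CPM in IR 4A liver and 2.08 ± 0.33 CPM in WT liver (SD, n = 5 each). Its log2 fold change was 0.87 (edgeR adjusted p = 0.101). Inhbc, the activin subunit gene of hepatocytes, had 32.5 ± 4.6 CPM in IR 4A liver and 51.8 ± 13.5 CPM in WT liver (SD, n = 5 each; -0.67, edgeR adjusted p = 0.115). Around Nampt, Nmrk1, the kinase of nicotinamide riboside, stood at 0.70 (edgeR adjusted p = 0.220) and Nnmt, which methylates nicotinamide, at -0.75 (edgeR adjusted p = 0.160). Among other secreted adipokines, Angptl2 stood at 0.75 (edgeR adjusted p = 0.106) and the phospholipid transfer protein gene Pltp at 1.04 (edgeR adjusted p = 0.109). Lcn2, an acute-phase lipocalin, had 5.59 to 63.7 CPM in IR 4A livers and 12.8 to 1930 CPM in WT livers (-4.56, edgeR adjusted p = 0.155).

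Levels were set across tissues in a fit of all 20 libraries with 1 scaling, over 14695 genes listed in both tables. Relative to scaling within each tissue, the common scaling moved eWAT by -1.33 log2 units against liver, so the CPM values of this comparison differ from those above. Cfd had 1475 ± 830 CPM in IR 4A eWAT and 0.266 ± 0.232 CPM in IR 4A liver, and 2608 ± 1340 CPM in WT eWAT and 0.243 ± 0.165 CPM in WT liver (SD, n = 5 each). The log2 fold change of eWAT over liver was 12.41 in IR 4A mice and 13.32 in WT mice (edgeR adjusted p = 1.64e-11 and 9.49e-12). Acvr1c was higher in eWAT by 8.48 log2 units in IR 4A mice and 9.01 in WT mice (edgeR adjusted p = 1.59e-10 and 3.6e-11), from 1 to 3 counts in the liver libraries that had any.

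Rarres2 and Rbp4 ran the other way. Rarres2 had 29.8 ± 12.6 CPM in IR 4A eWAT and 383 ± 8.9 CPM in IR 4A liver, and 53.9 ± 20.8 CPM in WT eWAT and 306 ± 67 CPM in WT liver (SD, n = 5 each). The log2 fold change of eWAT over liver was -3.68 in IR 4A mice and -2.50 in WT mice (edgeR adjusted p = 1.06e-09 and 1.24e-07). Rbp4 stood at -6.37 in IR 4A mice and -5.76 in WT mice (edgeR adjusted p = 1.74e-09 and 4.93e-09). For both genes each liver library was above each eWAT library.

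Nampt was the most even of the 5. It had 77.9 ± 23.7 CPM in IR 4A eWAT and 171 ± 27 CPM in IR 4A liver, and the groups did not overlap (log2 fold change -1.14, edgeR adjusted p = 0.000289). With each tissue scaled on its own, the means stood in the other order in both genotypes, at 118 CPM in eWAT and 102 CPM in liver of IR 4A mice, and at 150 CPM in eWAT and 68.0 CPM in liver of WT mice. In WT mice it had 98.4 ± 30.4 CPM in eWAT and 112 ± 30 CPM in liver (SD, n = 5 each; -0.18, edgeR adjusted p = 0.485). Without eWAT WT replicate 4 the WT difference was -0.54 and passed (edgeR adjusted p = 0.0370), and with upper-quartile scaling it was 0.09, so its direction in WT mice depended on the scaling and its call on that library. Counts of calls were 5 of 5 genes in IR 4A mice and 4 of 5 in WT mice, in fits that called 75.3% and 77.1% of all genes, so a call between these tissues was the common case.

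**Figure D5:**
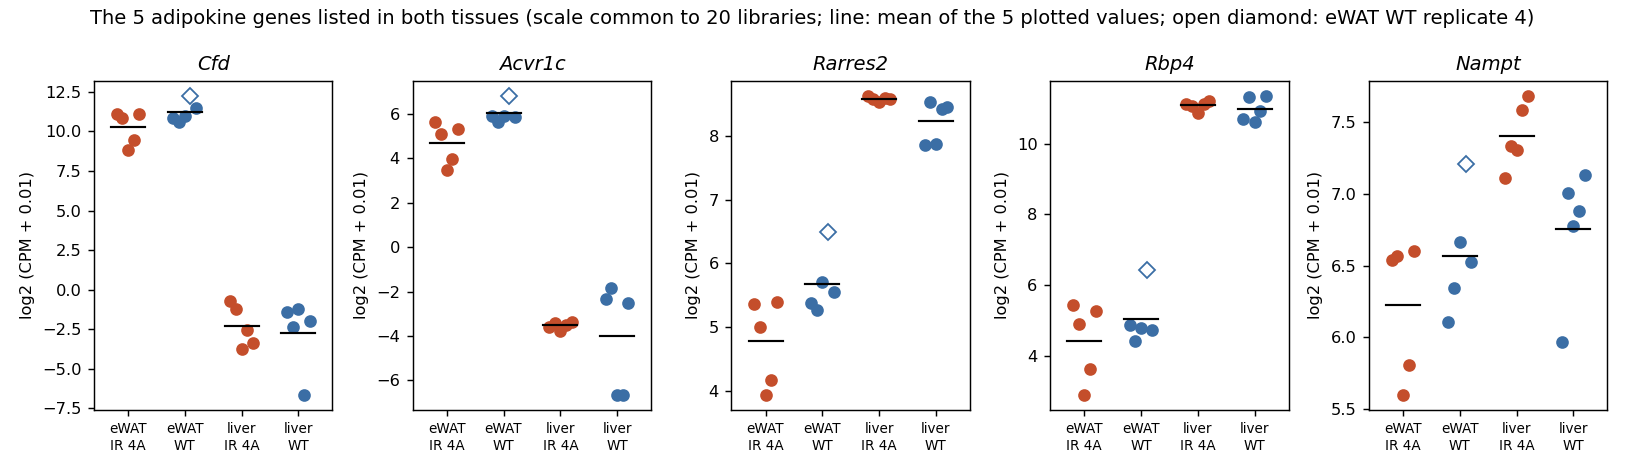
Level of the 5 adipokine genes listed in both tissues, as log2 of CPM plus 0.01 on a scale common to the 20 libraries; points are libraries, lines are means of the plotted values, and the open diamond is eWAT WT replicate 4. Cfd and Acvr1c lie far higher in eWAT than in liver, Rarres2 and Rbp4 lie higher in liver, and Nampt differs least; points near -6.6 are liver libraries with 0 counts.

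Whether the IR 4A change differed between tissues was tested as an interaction, the change in eWAT minus the change in liver. None of the 5 genes passed, where 2.41% of all genes did; 2 of the 5 had an unadjusted p under 0.05, as did 22.1% of all genes. The nearest was Rarres2, with an interaction of -1.18 log2 units (SE 0.37, edgeR adjusted p = 0.0849). DESeq2 and limma voom called it (adjusted p = 0.0407 and 0.0455), in fits that called 1273 and 628 of 14695 genes, where edgeR called 354. Without eWAT WT replicate 4 the Rarres2 interaction was -0.82 (edgeR adjusted p = 0.167). Nampt had -0.95 (SE 0.34, edgeR adjusted p = 0.110), and -0.66 (edgeR adjusted p = 0.237) without that library. Both genes thus had a positive estimate in liver beside a negative one in eWAT, and the difference between the tissues did not pass. For Rbp4 the interaction was -0.61 (edgeR adjusted p = 0.575), and 0.02 (edgeR adjusted p = 0.989) without eWAT WT replicate 4. For Cfd and Acvr1c, whose liver counts were few, it was -0.90 (SE 0.99, edgeR adjusted p = 0.632) and -0.53 (SE 1.53, edgeR adjusted p = 0.870).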

How the data were processed

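RNA-seq libraries of eWAT and liver from IR 4A and WT mice (5 per group) were prepared by poly-A selection with a stranded kit and sequenced as paired-end reads, per the labels' protocols. The tools named are DESeq2 1.32.0 and Salmon 1.8.0, with genome build GRCm39, per the submitters' processing notes. The deposited tables hold, per tissue, estimated counts rounded by the authors to whole numbers. They also hold log2 normalized values by the authors, used only as a check (rank correlation with the counts at least 0.987 in eWAT and 0.995 in liver). The authors' deposited comparison tables give a mean signal (normalized count), fold changes on the log2 scale, their standard errors, a test score and a p-value. Columns of other samples numbered 0. Repeated entries with the same identifier (208 in eWAT, 83 in liver) had identical counts and were counted once.

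Estimated counts were tested with edgeR 4.0.16 in R 4.3.3 (quasi-likelihood F test, two-sided, TMM scaling, filterByExpr with a minimum count of 10 and total of 15, Benjamini-Hochberg adjustment, threshold 0.05), within each tissue and, for tissue differences and the interaction, over all 20 libraries with 4 group means. DESeq2 1.42.0 and limma 3.58.1 (voom with sample weights) were alternatives, beside other scalings and filters, covariates, a replicate block and leaving out each library. In eWAT simulated from these libraries the edgeR test recovered 27% of genes changed by 1 log2 unit and 84.7% of those changed by 2. In liver it recovered 85% and 98%. The changed genes were drawn from well-counted genes, and each gene was simulated independently of the others. Library differences shared by many genes were thus left out, and the rates do not measure recovery in the real libraries. Library pairs within groups differed beyond counting noise (chi-square per degree of freedom at least 13.5 in eWAT and 12.5 in liver), so no pair looked like 1 library deposited more than once; this does not show that the libraries are from separate animals. CPM values use library totals times the TMM factors; transcript lengths came from GENCODE M21 and promoter windows from RefSeq GRCm38.p6, a build other than that of the counts.

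The 8 genes and the gene lists were chosen with earlier results of these data known. Named are all 8 genes, up to 4 genes of each list with the smallest edgeR p in that tissue (1 such gene is not reported here), and the 3 genes nearest to each of the 8 in profile with a mean of at least 1 CPM; Gpx5, Saa2, Plin1, Insr, Car3, Fabp4, Dgat2 and Gpd1 were named outside this rule.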

Additional observations from a re-analysis of the deposited data

Results flagged for a closer look

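In 5 of 38 groups of 5 libraries tested, 1 library lay farther from the others than Dixon's 95% limit allows, and chance alone flags about 1 group in 20. Each of the 5 is the same library, eWAT WT replicate 4, as the highest of its group. The 5 flags are thus not independent of each other, and their number cannot be weighed against that rate. Its level was 2173 CPM for Adipoq, beside 597 to 899 CPM in the other WT libraries. It was 453 CPM for Retn, beside 111 to 191 CPM, and 134 CPM for Rbp4, beside 32.3 to 43.9 CPM. It was 141 CPM for Rarres2, beside 58.5 to 78.5 CPM, and 176 CPM for Acvr1c, beside 76.2 to 91.1 CPM. Lep, Cfd and Nampt were also highest in that library without passing the limit. The summed mature adipocyte markers of the library were 42050 CPM and its epididymis markers 4943 CPM, both outside the range of the other 9 eWAT libraries; their part in the 5 values was not tested.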

How the results depend on the processing

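In eWAT, the estimate of Rbp4 turned to 0.026 with limma voom, 0.024 without WT replicate 4 (range over left-out libraries -0.81 to 0.024), 0.28 with the adipocyte covariate, also 0.28 with that covariate and without WT replicate 4, and 0.13 with the epididymis covariate. With the adipocyte covariate Retn turned to 0.19 and Nampt to 0.047, and to 0.18 and 0.055 with WT replicate 4 also left out. In liver, Rbp4 turned to -0.025 without WT replicate 1, -0.041 without WT replicate 3 (range over left-out libraries -0.041 to 0.14) and -0.16 without both. The Rbp4 interaction turned to 0.017 without eWAT WT replicate 4 (range -0.87 to 0.017), and the WT tissue difference of Nampt to 0.088 with upper-quartile scaling. Of the ratios to adipocyte markers, those of Rarres2 and Cfd differed by 0.0085 and -0.039 between IR 4A and WT eWAT, and their sign changed with the library left out (ranges -0.14 to 0.13 and -0.11 to 0.046); with the median of the markers as denominator Rarres2 stood at -0.38, Rbp4 at -0.098 and Retn at -0.17. The cause was not tested.

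Counts over all genes depended on the tool. In eWAT 2 genes passed; 1 passed with upper-quartile scaling or the stricter filter, 0 with no filter or with the epididymis covariate, 1204 with DESeq2, 78 with limma voom, 295 in the fit of all 20 libraries, 802 with the adipocyte covariate and 35 with that covariate and without WT replicate 4. In liver 1 gene passed; 451 passed with DESeq2, 4 with limma voom, 18 at an adjusted p of 0.1, 49 in the fit of all 20 libraries and 0 without WT replicates 1 and 3. For the interaction 354 passed, 108 higher and 246 lower; 1273 passed with DESeq2 and 628 with limma voom. The split was 161 higher and 180 lower with RLE scaling and 194 higher and 166 lower with upper-quartile scaling. With upper-quartile scaling the tissue difference split into 7643 higher and 3904 lower in WT mice and 7701 higher and 3758 lower in IR 4A mice, against 6348 and 4978 in WT mice and 5948 and 5113 in IR 4A mice with TMM. Of the listed genes 0 passed in either tissue; in eWAT 45 passed with DESeq2, 3 with limma voom, 14 in the fit of all 20 libraries, 24 with the adipocyte covariate and 2 with it and without WT replicate 4, and in liver 11 with DESeq2 and 1 in the fit of all 20. Leaving out each library in turn gave 0 to 6 genes in eWAT (6 without IR 4A replicate 3), 0 to 143 in liver (143 without IR 4A replicate 1), 70 to 729 for the interaction (70 without liver IR 4A replicate 4, 729 without eWAT WT replicate 5), 11035 to 11395 for the WT and 10745 to 11353 for the IR 4A tissue difference, 0 to 0 listed genes in eWAT and 0 to 3 in liver, and 0 to 2 ratios to adipocyte markers whose groups do not overlap (2 without WT replicate 4).

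Correlations of the deviations of same-numbered IR 4A and WT libraries were -0.73 to -0.205 for replicates 1 to 4 in eWAT. They were 0.67 for replicate 5 in eWAT and -0.07 to 0.08 in liver. With 1 value per replicate number in each tissue, they cannot settle whether the numbers pair the samples. With the replicate number as a block, 0 genes passed in eWAT, 3 in liver and 0 for the interaction; Acvr1c in eWAT stood at -1.32 (edgeR adjusted p = 0.574). Depth limits the liver values of Cfd and Acvr1c, and in eWAT the spread between libraries limits the detection of changes near 1 log2 unit.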
